A study of Mus musculus with 4 samples.

Results

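Loops that join a gene to a distant stretch of DNA with no protein-coding gene nearby were described in the mouse uterus. The method was Hi-C, in which DNA ends that are neighbours in the nucleus are ligated and read as pairs, and it gave 4 lists of loops, 1 per library. A loop is written as a pair of anchors, and the loops described here are called gene to distal intergenic loops. They had 5 kb anchors, a length of over 60 kb and up to 2 Mb from start to start, and the start or end of a protein-coding gene in exactly 1 anchor. The other, distal anchor lay at least 20 kb from every protein-coding gene body. This held for 2221 of the 59353 loops in the 4 lists, and the rule used positions alone and no comparison between conditions. Distances to genes, and with them part of the gene-poor surroundings reported here, are fixed by that rule.

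All mice were C57BL/6J females over 10 weeks old, ovariectomised and rested for 10 to 14 days, so each library, controls included, came from a mouse without ovaries. Vehicle was 100 ul of saline injected into the abdominal cavity, progesterone was a subcutaneous dose of 1 mg, dissolved in 100 ul of sesame oil, and the whole uterus was frozen 1 h later. Wild-type uterus after vehicle gave 2 libraries, replicates 2 and 3, called V-2 and V-3 here as in the labels. Wild-type uterus after progesterone gave 1 library (replicate 2), and so did vehicle-treated uterus of the genotype Ex3aERKO (replicate 1), in which estrogen receptor alpha (ERα) is missing. Progesterone and vehicle thus differed in carrier and route as well as in hormone. The sources used here do not give whether a library was 1 animal or a pool. The knockout and the progesterone group had 1 library each, so no test was made between conditions. Loop positions measure neither expression nor loop strength, so they check neither the tissue's cell types nor the deletion, and a loop that a list does not hold may still exist. In whole tissue, a loop in fewer cells and a weaker loop in each cell cannot be told apart.

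Chromatin loops form when cohesin extrudes DNA until it meets CTCF bound at the loop base, and also where active enhancers meet promoters. Genes that encode developmental transcription factors and fast-response regulators often sit alone in wide gene-poor stretches, where their enhancers can lie far from the start site and beyond other genes. An anchor far from genes can hold such an enhancer, a CTCF site, both or neither, and positions alone do not tell which.

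The lists differed in length and in resolution, and the count of loops found here moved with both. V-2 had 16387 loops, V-3 had 9385, progesterone had 11752 and the knockout had 21829, and 58.7%, 42.1%, 49.6% and 64.8% of them had 5 kb anchors. The gene to distal loops numbered 660, 216, 370 and 975 in that order. As a share of all 5 kb loops of the same length they were 9.12% (exact 95% interval 8.47 to 9.81) in V-2 and 7.02% (6.14 to 7.98) in V-3. The share was 8.37% (7.57 to 9.22) after progesterone and 9.74% (9.16 to 10.3) in the knockout. V-3, the shortest list, thus had the fewest such loops and the lowest share. Intervals cover counting error only, and neighbouring loops of 1 list are not independent.

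The genes whose promoters are shown are 5 of those with most distal partners, each with its start site inside the loop anchor. The sequences are the 250 bases before the annotated start, 5′ to 3′ on the gene's strand, from RefSeq on GRCm38.p6, the assembly behind mm10. Capitals mark matches, on either strand, to any of 5 short motifs, and overlapping matches share 1 run of capitals. The motif of the GC box was searched as GGGCGG. The motif bound by NF-Y was searched as CCAAT. For the TATA box the letters searched were TATAAA. For the AP-1 site, where N is any base, they were TGANTCA. For the core of the CTCF motif they were AGGNGGC. The stretches are Gas1 at chr13:60177536-60177785 on the minus strand, Jun at chr4:95052223-95052472 (minus), Klf6 at chr13:5861239-5861488 (plus), Cited2 at chr10:17722978-17723227 (plus) and Nr2f2 at chr7:70366747-70366996 (minus).
Gas1: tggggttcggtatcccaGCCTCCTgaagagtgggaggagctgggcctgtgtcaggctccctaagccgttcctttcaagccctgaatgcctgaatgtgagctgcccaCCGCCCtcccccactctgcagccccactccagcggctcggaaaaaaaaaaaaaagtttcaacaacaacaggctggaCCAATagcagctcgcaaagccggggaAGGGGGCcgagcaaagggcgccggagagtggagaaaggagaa
Jun: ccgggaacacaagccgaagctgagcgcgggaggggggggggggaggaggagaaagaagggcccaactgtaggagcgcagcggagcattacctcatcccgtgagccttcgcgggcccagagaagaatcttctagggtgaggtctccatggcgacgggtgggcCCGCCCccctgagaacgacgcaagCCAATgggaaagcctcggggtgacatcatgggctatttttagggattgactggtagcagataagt
Klf6: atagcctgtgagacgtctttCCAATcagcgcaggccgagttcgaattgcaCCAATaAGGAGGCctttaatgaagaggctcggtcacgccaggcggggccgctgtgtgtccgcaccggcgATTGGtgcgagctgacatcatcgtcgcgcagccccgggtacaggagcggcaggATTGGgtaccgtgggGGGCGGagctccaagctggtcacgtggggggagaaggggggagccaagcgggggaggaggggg
Cited2: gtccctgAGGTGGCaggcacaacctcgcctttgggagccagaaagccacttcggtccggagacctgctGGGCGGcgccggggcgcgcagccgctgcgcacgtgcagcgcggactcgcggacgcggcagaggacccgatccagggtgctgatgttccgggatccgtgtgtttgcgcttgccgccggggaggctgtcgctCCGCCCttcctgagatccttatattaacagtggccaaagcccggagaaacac
Nr2f2: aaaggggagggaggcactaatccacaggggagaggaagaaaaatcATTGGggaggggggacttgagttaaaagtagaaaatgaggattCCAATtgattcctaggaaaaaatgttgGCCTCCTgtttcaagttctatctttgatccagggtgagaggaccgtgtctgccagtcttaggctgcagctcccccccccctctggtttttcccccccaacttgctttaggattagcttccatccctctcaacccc

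The upstream stretches of 4 of these 5 genes had a GC content above the median of all promoters. It was 58.8% at Gas1, 61.2% at Jun, 64.8% at Klf6, 66.8% at Cited2 and 50% at Nr2f2. A CTCF core match was present in 4 of the 5 and a TATA box or AP-1 match in 0 of them, and no match says only that these letters are not in the window. Btg1 and Gadd45g, also among the genes with most partners but not shown, each had 1 TATA box match. Among the 21045 promoters of all protein-coding genes the median GC content was 55.6%, and 28.8% held a CTCF core match, 43.1% a GC box, 35.6% the CCAAT motif, 11.7% a TATA box and 6.17% an AP-1 site. Among the 824 promoters of genes with a distal partner in any list, the median GC content was 61.6%, and 37.6% held the CTCF core and 58.9% the GC box. The CCAAT motif, the TATA box and the AP-1 site were in 34.6%, 10.4% and 4.49% of them, each below the share of all promoters. Promoters of genes whose loops run only to anchors in or near genes lay between these in GC content, at 59.6%, and 34.9% of them held the CTCF core. Of 40 promoters of genes with a median of 2 or more distal partners, a limit chosen after the values were seen, 21 (52.5%) held it. In these 40 the GC box (62.5%), the CCAAT motif (42.5%) and the TATA box (17.5%) also lay above the share of all promoters. The AP-1 site was in 0 of them. GC-rich motifs are met more often in GC-rich sequence, the part of base composition in these shares was not tested, and a match is not a bound site.

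A total of 871 protein-coding genes had a distal partner in at least 1 list, where a partner is a distal anchor after merging anchors within 10 kb. They were 515 genes in V-2, 198 in V-3, 312 after progesterone and 693 in the knockout, which is 2.38%, 0.915%, 1.44% and 3.2% of 21631 genes. A partner was present in all 4 lists for 124 genes, and 404 genes had one in a single list. Most had 1 partner: 78.1% in V-2, 87.9% in V-3, 83.7% after progesterone and 73.2% in the knockout. The highest number in a list was 6 in V-2 (Gas1, Thbs1 and Nr2f2) and 4 in V-3 (Zfp703). It was 4 after progesterone (Gas1, Zfp703, Klf6, Jun, Thbs1, Osr1 and Irf2bp2) and 9 in the knockout (Myc).

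The 12 genes with the highest median number of partners over the 4 lists were mostly short genes of transcriptional and growth control, among them Jun, Klf6, Cited2, Nr2f2, Osr1 and Zfp703. Together they had 74 distal sites. Of these sites, 64 lay on loops that skip no other protein-coding gene, and at 7 of the 12 genes all sites lay on 1 side of the gene. By any loop of a list, with anchors of any size, 33 of the 74 sites were matched in all 4 lists. As a 5 kb gene to distal loop, 15 sites were in all 4.

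**Figure D1:**
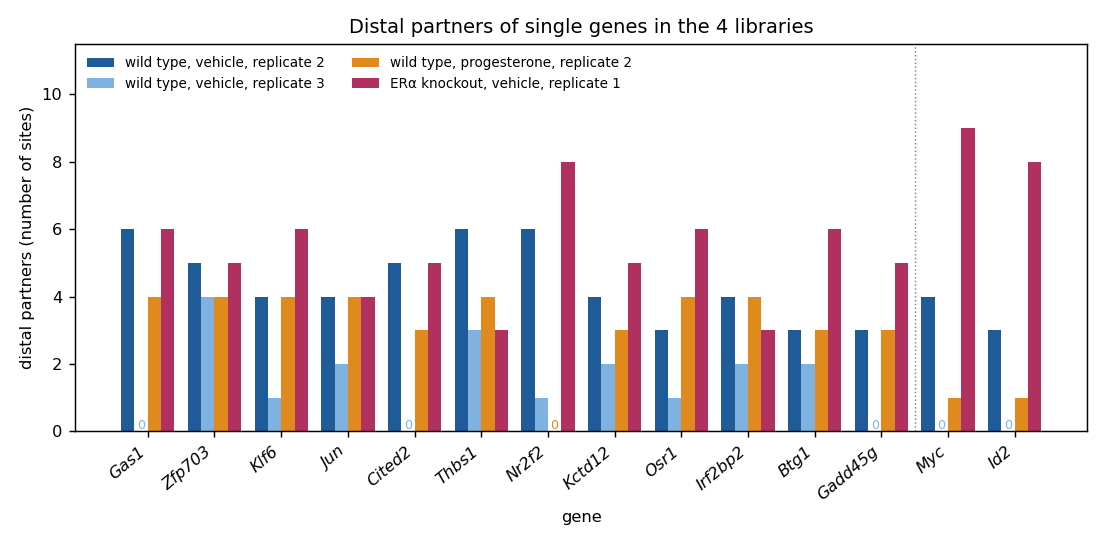
Number of distal partners (y axis, merged sites) of the 12 genes with the highest median, and of Myc and Id2 to the right of the dotted line, with 1 bar per library; there is no error bar because each bar is a count in 1 list. The knockout bar is the highest for Klf6, Nr2f2, Kctd12, Osr1, Btg1, Gadd45g, Myc and Id2, reaching 9 for Myc, and vehicle replicate 3 has 0 for Gas1, Cited2, Gadd45g, Myc and Id2.

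Among the transcription factors, Jun, which encodes a subunit of AP-1, had 4 partners in V-2, 2 in V-3, 4 after progesterone and 4 in the knockout. The gene (chr4:95049036-95052222) reached only to higher positions, over 110 to 430 kb. Its nearest site, chr4:95160001-95165000, overlaps the non-coding gene Junos, and that site and chr4:95315001-95320000 were partners in all 4 lists. The remaining sites, 325 kb and 425 kb away, were in the same 3 lists and missing from V-3 at any anchor size.

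Klf6, which encodes a Krüppel-like zinc finger factor, had 4, 1, 4 and 6 partners in the same order of libraries. Its 7 sites lay on both sides of the gene (chr13:5861489-5870393), between 150 kb and 1090 kb away, and no loop skipped a gene. The site 425 kb away, chr13:5435001-5440000, was matched in the 3 wild-type lists and not in the knockout list, with no knockout loop within 25 kb. The sites 295 kb and 610 kb away were partners in the knockout alone, although 1 wild-type list held a matching loop that did not meet the rule at each of them.

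Cited2, whose product binds the coactivators CBP and p300, had 5, 0, 3 and 5 partners. All 9 of its sites lay at lower positions, 70 kb to 1085 kb upstream of the gene (chr10:17723228-17725674), in a stretch without another protein-coding gene. The sites 70 kb, 90 kb, 160 kb and 210 kb away overlapped the non-coding gene Gm32543, and the site 710 kb away overlapped Gm20125. The V-2 and knockout lists held equal numbers of partners, but 3 of the 9 sites were matched in V-2 alone and 3 in the knockout alone. This rests on the 10 kb added to each anchor side for a match, since 2 of the 3 knockout sites had a vehicle loop within 25 kb. Only the site 355 kb away was matched in all 4 lists.

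Nr2f2 encodes the orphan nuclear receptor COUP-TFII, which acts in the uterine stroma during decidualisation. It had 6 partners in V-2, 1 in V-3, 0 after progesterone and 8 in the knockout, so the vehicle replicates themselves spanned most of the range. By any loop, 7, 5, 4 and 9 of its 9 sites were matched in that order, so the 0 after progesterone counts loops that meet the rule, not all loops of the gene. The sites lay 260 kb to 1390 kb from the gene (chr7:70351946-70366746), 2 at lower and 7 at higher positions, and the 7 loops to higher positions each skipped 1 gene.

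Osr1, a zinc finger gene of embryonic urogenital tissue, had 3, 1, 4 and 6 partners, all at higher positions than the gene (chr12:9574442-9581500). Its loops were long, from 345 kb to 965 kb. Although only the site 865 kb away was a partner in all 4 lists, 5 of the 6 sites were matched in every list by a loop of any anchor size. Osr1 thus had more sites common to all lists by that measure than any other of the 12 genes.

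Zfp703, which encodes a zinc finger corepressor, had the most even counts of the 12, with 5, 4, 4 and 5 partners. All 5 sites lay at lower positions than the gene (chr8:26977336-26981462), between 65 kb and 625 kb away, in a stretch with no other protein-coding gene between. Sites 150 kb, 290 kb and 625 kb away were partners in all 4 lists. Irf2bp2, which encodes a corepressor partner of the factor IRF2, had 4, 2, 4 and 3 partners over shorter distances of 65 kb to 245 kb, and 2 of its 4 sites were partners in all lists.

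Among the genes of growth arrest, Gas1, which encodes a membrane protein that also binds hedgehog ligands, had the highest median, with 6, 0, 4 and 6 partners. The 6 sites lay on both sides of the gene (chr13:60174405-60177535), 3 on each, between 75 kb and 320 kb away. Loops that did not meet the rule matched 2 of the sites in V-3, at chr13:59885001-59895000 and chr13:60465001-60470000. V-2 and the knockout held the same 6 sites.

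Btg1, an antiproliferative gene, had 3, 2, 3 and 6 partners, and its closest sites, 70 kb to the one side and 65 kb to the other, were partners in all 4 lists. Gadd45g, a stress and growth arrest gene, had 3, 0, 3 and 5 partners, all at higher positions and within 375 kb. The knockout held 2 Gadd45g sites that no other list matched, at 200 kb and 235 kb.

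Of the last genes among the 12, Thbs1 encodes the matrix glycoprotein thrombospondin and had 6, 3, 4 and 3 partners. It was 1 of 2 genes of the 12, with Irf2bp2, that had fewer partners in the knockout than in V-2. Its 6 sites all lay at lower positions, between 70 kb and 570 kb away, and the knockout list matched 3 of them, which were the 3 matched in all lists. Kctd12, which encodes an auxiliary subunit of GABA-B receptors, had 4, 2, 3 and 5 partners at lower positions, 80 kb to 610 kb away.

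**Figure D2:**
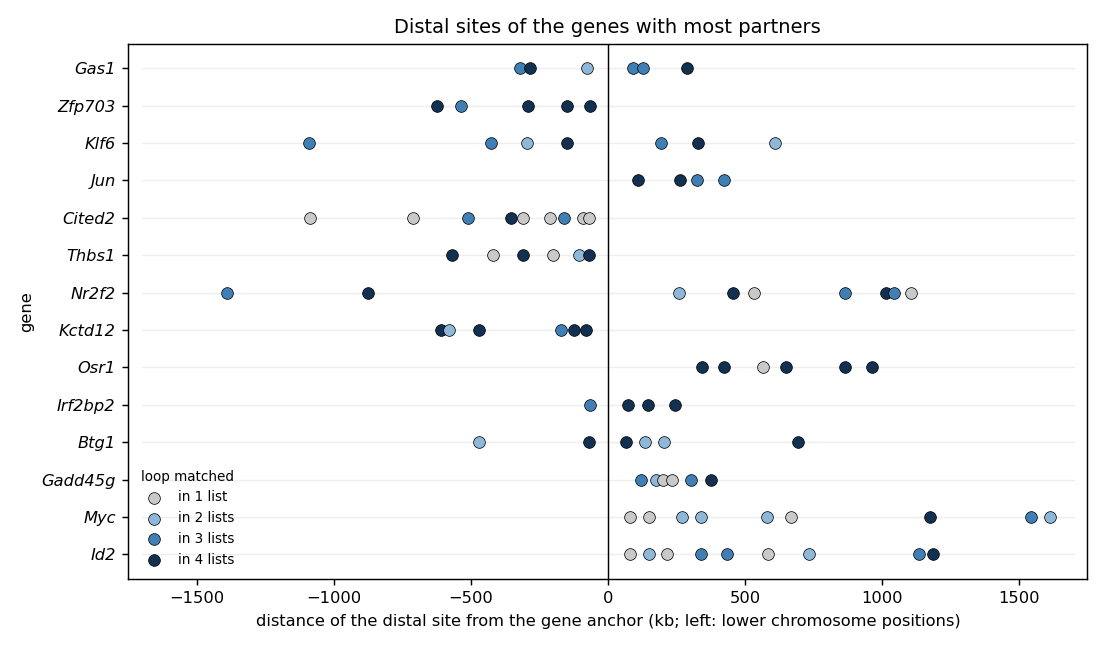
Position of each distal site (x axis, kb from the gene anchor, negative toward lower chromosome positions) for the 12 genes with the highest median and for Myc and Id2; the shade gives the number of lists that match the loop at any anchor size. All sites of Zfp703, Jun, Cited2, Thbs1, Kctd12, Osr1, Gadd45g, Myc and Id2 lie on 1 side, and the farthest site shown is 1615 kb from Myc.

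Of the hormone genes always examined, Esr1, Pgr and Greb1 had no gene to distal loop in any list. Their ends lay in few loops of any kind: 1, 2, 0 and 1 at Esr1, 0, 1, 3 and 0 at Pgr, and 0, 1, 1 and 0 at Greb1. Igf1, which encodes a growth factor, had 2, 1, 0 and 1 partners, at sites 190 to 205 kb and 115 kb from the gene. By any loop, 2, 1, 1 and 2 of its 2 sites were matched, the farther one in all 4 lists. The 0 after progesterone thus counts loops that meet the rule, not all loops of the gene.

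Myc, the growth-control gene, had 4, 0, 1 and 9 partners in V-2, V-3, progesterone and the knockout. All 9 sites lay at higher positions, from 80 kb to 1615 kb away, and the loops skipped no protein-coding gene. The sites 80 kb, 150 kb and 270 kb away overlapped the non-coding gene Pvt1. The vehicle lists differed from each other by as much as 4 partners, and the looser match gave 5, 1, 3 and 9 sites. Id2, which encodes an inhibitor of bHLH factors, had 3, 0, 1 and 8 partners, also all to 1 side. Its looser match gave 6, 1, 4 and 9 of 9 sites, and the site 1185 kb away was matched in all 4 lists.

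Gene to distal loops were longer than loops between gene ends and than loops from a gene end to an anchor in or near a gene. Their median was 200 kb in V-2 (quartiles 110 and 395 kb), 190 kb in V-3 (115 and 350 kb), 192.5 kb after progesterone (105 and 365 kb) and 190 kb in the knockout (105 and 370 kb). Loops from a gene end to an anchor in or near a gene, which can be the same gene, had medians of 140, 135, 140 and 130 kb. Loops from gene end to gene end had 120, 105, 110 and 125 kb. Loops with no gene end at either anchor had medians of 210, 195, 200 and 185 kb, close to the gene to distal loops. Loops over 500 kb made up 15.9%, 13.9%, 15.9% and 15.2% of the gene to distal loops, and 5.26%, 3.82%, 4.86% and 5.54% of the loops to anchors in or near genes. The rule keeps the distal anchor 20 kb or more from genes, so length is not independent of it.

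Of the loops matched in all 4 lists by loops of any kind and anchor size, the longest belonged to Epha4, Fat4, Dok2, Ebf3 and Nrp2. As gene to distal partners at any site, Epha4 had 2, 0, 2 and 3, Fat4 1, 0, 0 and 3 and Dok2 1, 0, 0 and 0. Ebf3 had 3, 1, 2 and 2, and Nrp2 had 4, 0, 0 and 4. Epha4, an ephrin receptor gene, was joined to chr1:75650001-75655000 over 1865 kb and to chr1:75925001-75930000 over 1590 kb, and neither loop skipped a gene. Fat4, an atypical cadherin gene, had a loop of 1560 kb, again with no gene between, to a site that overlaps the non-coding gene Gm30184. Loops of 1525 kb at Dok2, an adaptor protein gene, 1485 kb at Ebf3, an early B-cell factor family gene, and 1325 kb at Nrp2, a semaphorin and VEGF receptor gene, skipped 1 gene each. These were Gfra2, Mgmt and Pard3b.

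Fewer gene to distal loops than loops of other kinds skipped a gene, meaning that a whole protein-coding gene body lay between the anchors. The share was 32.9% (29.3 to 36.6) in V-2, 41.7% (35.0 to 48.6) in V-3, 36.0% (31.1 to 41.1) after progesterone and 29.7% (26.9 to 32.7) in the knockout. It was 53.0%, 51.2%, 49.3% and 49.0% for loops to anchors in or near genes, and 62.5%, 68.5%, 62.9% and 69.2% for loops between gene ends. The intervals lay below those of the other kinds in each list, except that V-3 reached into the 47.4 to 55.1 of its loops to anchors in or near genes. The loops without a gene end, of nearly the same median length, skipped a gene in 55.3%, 58.6%, 55.1% and 47.2%. The rule asks for a gene-free stretch around the distal anchor, so part of the lower share follows from it.

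**Figure D3:**
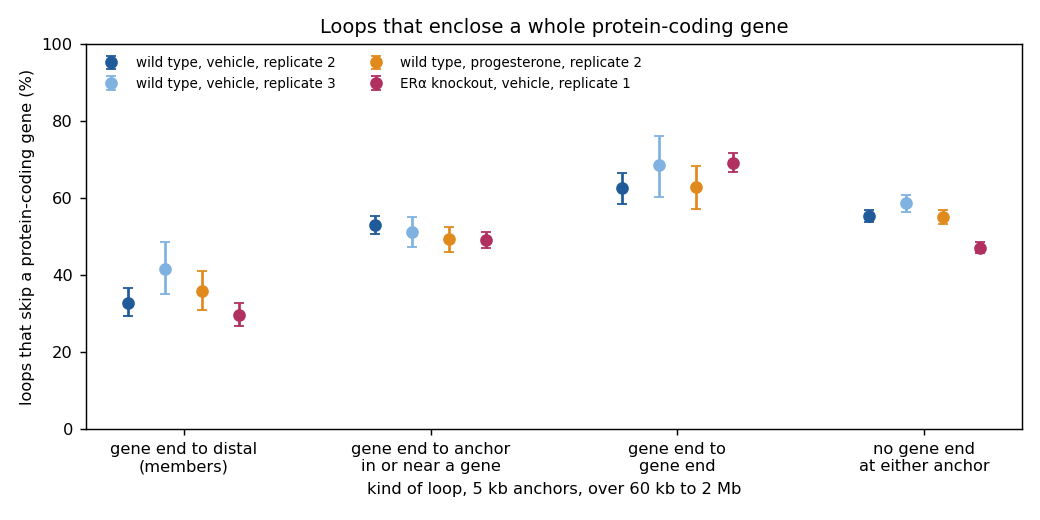
Share of loops that enclose at least 1 whole protein-coding gene (y axis, percent), by kind of loop and library, for 5 kb anchors and lengths over 60 kb to 2 Mb; bars are exact 95% intervals over loops. The gene to distal loops lie between 29.7% and 41.7%, below every other kind in each library.

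Where gene to distal loops did skip genes, some skipped many. Of the loops matched in all 4 lists, that of Gimap3, a GTPase gene of immune cells, skipped most, with 16 genes over 595 kb to chr6:48175001-48180000, among them Gimap1, Gimap4 to Gimap9 and Zfp467. The loop of Gimap8 ends at the same distal anchor and skipped 9. Klhdc10, a kelch repeat gene, skipped 11 genes over 580 kb, among them the imprinted gene Mest. Dusp23, a phosphatase gene, skipped 7 over 225 kb, and Fbxo43, Dbt and Bdh2 skipped 6 each. The matches were again to loops of any kind and anchor size. Gimap3, Gimap8, Fbxo43 and Dbt had a distal partner in V-2 alone, Klhdc10 and Bdh2 had none in V-3, and Dusp23 had none after progesterone.

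The largest number in any list was 21 genes, at a 1000 kb knockout loop of Trappc5, a gene of vesicle transport, that passes the Cd209 lectin genes. In the Hoxa cluster, Hoxa9 loops of V-2 and progesterone skipped 13 genes, and loops at Hoxa10 and Hoxa11 of V-3 and the knockout skipped 14. These loops were named after their values were seen. Across all gene to distal loops, 3.33%, 2.31%, 2.16% and 2.15% skipped 5 or more genes in the same order of libraries.

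At the distal end, the looped gene was often not the closest gene. It was not the nearest protein-coding gene to the distal anchor in 62.3% (58.5 to 66.0) of the loops in V-2, 70.4% (63.8 to 76.4) in V-3, 67.3% (62.3 to 72.1) after progesterone and 62.7% (59.5 to 65.7) in the knockout. Among the loops that skipped no gene, 195 of 443, 63 of 126, 117 of 237 and 323 of 685 still had another gene closer. That gene lay beyond the distal anchor or only partly between the anchors. The distal anchors lay a median of 73.6, 63.0, 69.9 and 75.5 kb from the nearest gene body, and 35.6%, 29.6%, 34.3% and 36.9% lay at least 100 kb away. Thus most distal anchors were well clear of the 20 kb limit. Just outside it, 81, 31, 37 and 97 loops had a distal anchor 15 to 20 kb from a gene, and 47, 24, 38 and 82 lay 20 to 25 kb away.

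Ends of non-coding genes were about as frequent at these anchors as at other anchors that far from protein-coding genes. An end of a long non-coding or microRNA gene lay in 17.9% (15.03 to 21.0), 14.4% (9.96 to 19.8), 15.7% (12.1 to 19.8) and 15.9% (13.7 to 18.4) of the distal anchors. Anchors at least 20 kb from genes on loops without a gene end gave 15.1%, 16.6%, 14.5% and 15.5%, all inside those intervals. The body of a non-coding gene overlapped 33.0%, 32.4%, 31.6% and 31.4% of the distal anchors, a share not computed for the other anchors. At Abca1, the gene of a cholesterol transporter, the site 105 kb away overlapped the non-coding gene Mexis.

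At the gene end, the anchor mostly held the start of the gene and not its other end. Of single genes with known strand, 77.0% (72.0 to 81.5) had only their start in the anchor in V-2, 64.7% (55.9 to 72.8) in V-3, 70.1% (63.5 to 76.1) after progesterone and 80.3% (76.3 to 83.8) in the knockout. Genes of loops to anchors in or near genes gave 69.5%, 61.9%, 70.0% and 77.2%. The interval of V-2 overlapped that of the near-gene loops there, 66.5 to 72.4, and so did those of the other lists. The distal anchor lay upstream of the gene in 51.9%, 46.3%, 47.3% and 55.3% of the loops. In the knockout this share had an interval of 51.4 to 59.1, and in the other lists the interval included equal numbers on both sides.

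Genes with a distal partner had fewer neighbours than other genes. A median of 6 protein-coding genes started within 500 kb of the 871 genes, against 15 for all genes, and the larger of the gene-free flanks was a median of 180.2 kb against 35.2 kb. For the 55 genes with a median of 2 or more partners the flank was 494.8 kb and the gene itself 8.9 kb long, against 17.3 kb for all genes. The rule needs a gene-free stretch at the distal end, so these surroundings are partly its result. Gene length was not part of the rule, and over all 871 genes the median was 34.6 kb.

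With the 4 lists pooled, a few distal sites served several gene places. Of 1117 merged distal sites, 81 (7.25%) were joined to 2 or more gene places over 50 kb apart. The site at chr8:4675001-4680000 was joined to 5 places, at Trappc5, Cers4, Evi5l, Shcbp1 and Zfp958. The sites at chr13:30080001-30090000, joined to Cdkal1, E2f3 and Uqcrfs1, and at chr16:85675001-85680000, joined to Adamts1, App and Mrpl39, had 3 places each. No single list held all 3 places of either site as gene to distal loops. Uqcrfs1 had its partner in V-2 alone, App in V-3 alone and Mrpl39 in the knockout alone, while E2f3 had one after progesterone and in the knockout. At the chr8 site, Trappc5 and Shcbp1 were joined in the knockout alone. These sites and their genes were chosen after their values were seen. Genes that share an anchor also share its partners, and 4.32% to 5.76% of the loops of a list had more than 1 gene at the gene anchor.

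Of the 13 gene lists, stromal matrix genes had the highest share with a distal partner in each library, at 34.5%, 17.2%, 27.6% and 48.3%. Early estrogen response genes came close to it in V-2, V-3 and progesterone, at 32.5%, 15% and 27.5%, and the order of the lists was not tested. The lists of genes were chosen with earlier results of these data known, so their counts are a description beside the share of all genes, which was 2.38% in V-2, 0.915% in V-3, 1.44% after progesterone and 3.2% in the knockout. Of 29 stromal matrix genes, 10, 5, 8 and 14 had a partner, and Col1a2, Col12a1, Fmod and Pdgfra had one in all 4 lists. Col3a1, a fibrillar collagen gene, had 3, 0, 3 and 4 partners, and Col12a1 had 1 in each list, 950 kb to 955 kb away. Of 40 early estrogen response genes, 13, 6, 11 and 13 had one, with Jun, Klf4, Klf6 and Cebpb in all lists. Cebpb, which encodes a C/EBP factor needed for decidualisation, had 2 partners in each list, 75 kb to 205 kb away.

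Mesenchymal transcription factor genes numbered 11, 3, 6 and 14 of 40, led by Nr2f2 and by Ebf3 with 3, 1, 2 and 2 partners. Patterning factor genes numbered 6, 5, 4 and 9 of 34, with Osr1 and Hoxd9 in all lists. Hoxd9 and its neighbour Hoxd8 share their anchors and had 3, 2, 2 and 3 partners between 355 kb and 620 kb away. Progesterone and decidual response genes numbered 8, 5, 3 and 11 of 38, with Cebpb and Sgk1, a kinase gene, in all lists. Of 24 genes of steroid receptors and coregulators, 2, 1, 1 and 4 had a partner, and only Nrip1, a corepressor gene, had a partner in every list.

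Smooth muscle genes numbered 4 of 17 in V-2 (23.5%) and 2 in the knockout (11.8%), with Itga8, Myocd, Smtn and Tpm1, and 0 in V-3 and after progesterone. Genes that mark the remaining cell types had few or none. Epithelial genes numbered 0, 0, 0 and 1 of 20, the one being Grhl2, and endothelial genes 1, 0, 0 and 0 of 14, the one being Kdr. Immune genes (14), hepatocyte genes (20 matched) and neuronal genes (21) had 0 in every list. CTCF and cohesin genes numbered 1, 0, 0 and 1 of 16, both times Stag2. With lists this short, 0 or 1 gene is also what the share of all genes would give, and which cell type holds a loop was not measured.

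Families differed widely. Of 17 Krüppel-like factor genes 6, 4, 5 and 7 had a partner, with Klf4, Klf6 and Klf13 in all lists, and of 6 Gata genes 2 had one in every list, Gata4 and Gata6. Hox genes numbered 6, 7, 5 and 6 of 39, collagens 6, 2, 5 and 8 of 44, Sox genes 3, 0, 1 and 5 of 19 and forkhead genes 4, 1, 3 and 7 of 44. The Zfp zinc finger genes, many of them in gene clusters, numbered 7, 3, 5 and 13 of 394, close to the share of all genes, although Zfp703 was among the genes with most partners. None of 1110 olfactory receptor, 353 vomeronasal receptor, 53 keratin or 37 NADH dehydrogenase subunit genes had one in any list. Ribosomal protein genes numbered 1, 0, 0 and 3 of 82, close to the share of all genes. That share was 2.38%, 0.915%, 1.44% and 3.2%. For groups as small as the keratin and NADH dehydrogenase subunit genes, 0 is also near what it would give.

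**Figure D4:**
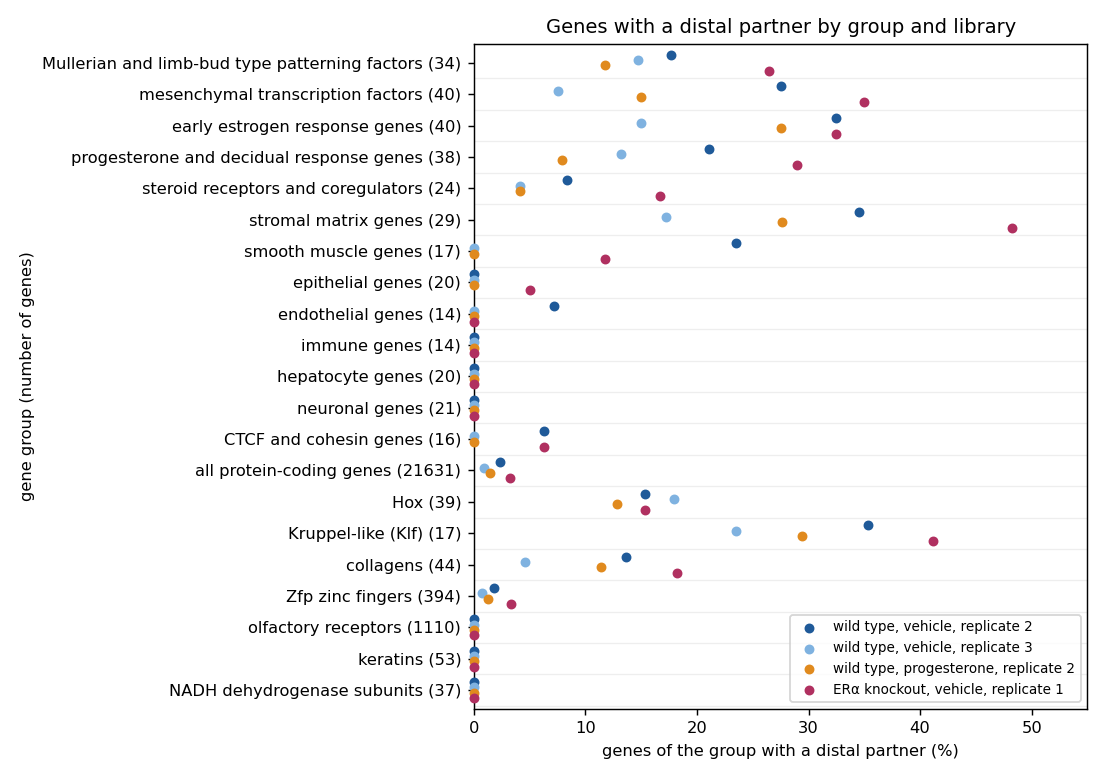
Share of each gene group with a distal partner (x axis, percent), with 1 point per library and the number of genes of the group in brackets; points have no error bar because the genes of a group can share anchors. Stromal matrix genes reach 48.3% in the knockout and Klf genes 41.2%, against 3.2% of all protein-coding genes there.

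For the loops of each list, the share found elsewhere was lowest in the shortest of the other lists. With 10 kb added to each side of each anchor and loops of any anchor size searched, V-3 had 92.6% (88.3 to 95.7) of its gene to distal loops in V-2, 91.7% after progesterone and 92.6% in the knockout. Progesterone had 91.9% in V-2, 78.4% in V-3 and 91.1% in the knockout. V-2 had 60.5% in V-3, 70.3% after progesterone and 84.8% in the knockout. Of the knockout loops 68.4%, 44.6% and 54.4% were in V-2, V-3 and the progesterone list.

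Other 5 kb loops of the same length were shared to a like degree, but V-2 shared fewer of its gene to distal loops with V-3 and with progesterone, and the knockout fewer with V-3. The other loops are of mixed kinds, and 4247 of the 6574 in V-2 had no gene end. For V-2 loops sought in V-3 the share was 60.5% (56.6 to 64.2) against 69.1% (68.0 to 70.2) of the other loops. For those sought in the progesterone list it was 70.3% (66.7 to 73.8) against 75.7% (74.7 to 76.8). The knockout had 44.6% (41.5 to 47.8) against 49.9% (48.9 to 50.9) in V-3. When only gene to distal loops of the other list counted as a match, V-2 had 25.2% in V-3, where 42.1% of loops had 5 kb anchors, and the part of anchor size in this was not tested.

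Loops matched in all 4 lists made up 51.5% (47.6 to 55.4) of the gene to distal loops of V-2, 84.3% (78.7 to 88.9) of V-3, 73.0% (68.1 to 77.4) of progesterone and 36.6% (33.6 to 39.7) of the knockout. Loops to anchors in or near genes gave 56.1%, 86.3%, 75.2% and 40.5%, and loops without a gene end 64.7%, 87.5%, 79.7% and 49.8%. Loops between gene ends gave the lowest shares, 37.0%, 76.2%, 58.6% and 17.3%. A lower share than that of all other loops together was thus not particular to gene to distal loops. Gene to distal loops in no other list were 62 (9.39%), 3 (1.39%), 9 (2.43%) and 246 (25.2%). In the knockout, loops between gene ends were in no other list in 45.3% (42.8 to 47.9). This interval lay above that of the gene to distal loops, 22.5 to 28.1. Loops to anchors in or near genes gave 25.6%, and loops without a gene end gave less, 21.4% (20.3 to 22.5). By gene and site there were 1312 pairs, of which 509 (38.8%) were matched in all 4 lists at any anchor size and 125 (9.53%) as a 5 kb gene to distal loop.

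**Figure D5:**
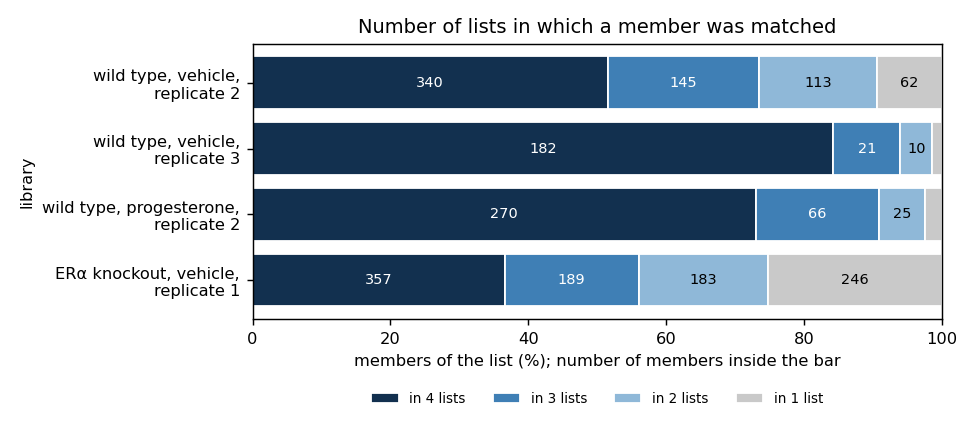
Gene to distal loops of each library by the number of the 4 lists that match them (x axis, percent of the list; numbers inside the bars are loops). Vehicle replicate 3, the shortest list, has 182 of 216 loops in all 4 lists, and the knockout, the longest, has 357 of 975.

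The progesterone list was compared with the vehicle lists to see which gene to distal loops differ 1 h after the hormone. Of the 660 gene to distal loops of V-2, 399 had a match in V-3 by a loop of any kind or anchor size. For 166 of them a gene to distal loop of V-3 gave the match. The progesterone list missed 39 of the 399 (9.77%, 7.04 to 13.1), beside 9.51% of all 5 kb loops of that length. For 16 of the 39 the progesterone list had a loop within 25 kb. In the other direction 19 of its 370 loops had no match in V-2 or V-3 (5.14%, 3.12 to 7.90), beside 5.86% of all. Both shares were near those of all loops. By the same measure V-2 lacked 7 of 198 loops (3.54%) shared by V-3 and progesterone, and V-3 lacked 104 of 464 (22.4%) shared by V-2 and progesterone. In the other direction, 23.8% of the V-2 loops and 4.17% of the V-3 loops were in neither the other vehicle list nor the progesterone list. Both progesterone values thus lay inside the range of the vehicle libraries. Without V-3 the counts were 196 and 30 in place of 39 and 19, and without V-2 they were 18 and 80.

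The 39 loops lay at 42 genes, and Nr2f2 had 2 of them while each other gene had 1. The Nr2f2 loops, 865 kb and 1045 kb long, were also in the knockout list, and both had a progesterone loop within 25 kb. A 125 kb loop of Adamts9, a matrix protease gene, was in V-2, V-3 and the knockout, with no progesterone loop within 25 kb. The same was true of a 330 kb loop of Bambi, a pseudoreceptor gene of TGF-beta signalling. It was also true of a 190 kb loop at 4430402I18Rik and Plpp6, which share the gene anchor. A 485 kb loop at 1700029J07Rik, on the other hand, had a progesterone loop within 25 kb. The 19 progesterone loops found in neither vehicle list lay at 19 genes with 1 each, and 9 of them were in the progesterone list alone. Among them, the 205 kb Btg1 loop was also in the knockout list and had a vehicle loop within 25 kb. Loops of 175 kb at Arhgap21, a gene of a GTPase-activating protein, 95 kb at 1700017B05Rik, 100 kb at AW146154 and 70 kb at Adssl1 were in the progesterone list alone, the last with a vehicle loop within 25 kb.

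The knockout list was compared with the vehicle lists to see which gene to distal loops differ in a uterus without ERα. The knockout list missed 27 of the 399 gene to distal loops of V-2 that V-3 matched (6.77%, 4.51 to 9.69). The share was 6.21% of all 5 kb loops of that length, and 18 of the 27 had a knockout loop within 25 kb. Of the 975 loops of the knockout list, 272 had no match in V-2 or V-3 (27.9%, 25.1 to 30.8), beside 29.5% of all. Here too the gene to distal loops were near the share of all loops. V-2 lacked 10 of 200 loops shared by V-3 and the knockout, and V-3 lacked 188 of 560 (33.6%) shared by V-2 and the knockout. In the other direction 73 of 660 V-2 loops (11.1%) were in neither V-3 nor the knockout, and 6 of 216 V-3 loops (2.78%) were in neither V-2 nor the knockout. The 27.9% of the knockout lay above both. With the progesterone list in place of the knockout list, 23.8% (20.6 to 27.2) of the V-2 loops were in neither other list. That interval overlaps the 25.1 to 30.8 of the knockout. The knockout list is the longest and has the most 5 kb anchors, and the part of this in the 272 loops was not tested. Without V-3 the counts were 100 and 308 in place of 27 and 272, and without V-2 they were 16 and 540.

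Myc and Gtdc1 led the loops seen in the knockout and in neither vehicle list, with 4 each, followed by Cited2 and Id2 with 3 each. Those of Myc ran to sites 80 kb, 150 kb, 340 kb and 670 kb away, and the 340 kb loop was also matched in the progesterone list. Gtdc1, which encodes a glycosyltransferase-like protein, had partners in the knockout alone, 485 kb, 590 kb, 655 kb and 1515 kb from chr2:44925001-44930000. The loops of Gtdc1 each skipped 1 gene, Zeb2, and the progesterone list matched the longest. Zeb2 had 2, 0, 0 and 2 partners of its own, also at higher positions. For Cited2, 2 of its 3 loops had a vehicle loop within 25 kb, and for Id2 this held for 1 of 3. Adamts9, 1 of 16 genes with 2 such loops, had them over 65 kb and 600 kb.

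The 27 V-2 loops matched in V-3 that the knockout list missed lay at 29 genes with 1 each. The 200 kb loops of Abca1 and of Bcl2, a survival gene, were also in the progesterone list and had no knockout loop within 25 kb. The loop of Cldn1, a tight junction gene (135 kb), and that of Chodl and Tmprss15, which share an anchor (315 kb), had a knockout loop that near. Of the gene to distal loops of V-2, 360 were matched in V-3 and in the progesterone list by loops of any kind. Of these, 20 were not called in the knockout (5.56%, 3.43 to 8.45), beside 4.27% of all 5 kb loops of that length, a share inside that interval. A knockout loop lay within 25 kb of 14 of the 20, including those of Igf1, Igfbp5, Sfrp4, Nrip1 and Hdac4. The 6 without one were at Sulf1, Bcl2, Lum, Klf6, Hoxd11 and Abca1. Lum, a stromal proteoglycan gene, had a loop of 190 kb that skipped 1 gene, and Hoxd11 had one of 1095 kb that skipped 9. These genes were named after their values were seen, and the comparisons with progesterone and with the knockout share the same vehicle libraries.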

How the data were processed

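The deposited files are loop lists, 1 per library, and the authors give in them only positions, in bases, of each loop's paired anchors. The submitters' processing notes name mm10 and Juicer 1.5.6, and the labels' protocols name the Arima Hi-C kit. How loops were called, with which thresholds, and whether samples were pooled was not given in the sources used here. Sequencing depth is unknown from positions, and only the anchor size (5, 10 or 25 kb) shows resolution.

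Genes were the 21631 protein-coding genes of a RefSeq table of GRCm38.p6, with strand known for 17274 of them from promoter sequences. The members and the gene lists (13 lists of 328 entries, 327 of them matched, and 19 symbol families) were chosen with earlier results of these data known. A loop matched another list when a loop there overlapped each of its anchors, widened by 10 kb on either side. Shares carry exact (Clopper-Pearson) 95% intervals, and no test was made.

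Genes named were the 12 with the highest median number of partners, the leaders of each library, the 5 with the longest loops in all 4 lists and the 5 that skipped most genes. They also were the 5 with most differing loops per direction, up to 5 per gene list, and always Esr1, Pgr, Igf1, Greb1 and Myc. Others are said to be chosen later. The classes and matches were tested on simulated data, where 1492 of 1492 loops got the right class. Alternatives to each setting are in the closing section. Computation used Python 3.11.15 with numpy 2.4.6, scipy 1.17.1 and matplotlib 3.10.9.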

Additional observations from a re-analysis of the deposited data

How the results depend on the processing

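The number of gene to distal loops depends on how they are defined, and the depth of the libraries, which could limit it, is unknown. The 2221 loops became 1437 with the distal anchor at least 50 kb from genes, 5324 with any part of a gene body in the gene anchor, 1357 with the annotated start only and 804 with the distal anchor also away from non-coding genes. With 5 and 10 kb anchors they were 3888. The median length over all loops rose from 190 kb to 265 kb when only loops over 100 kb were kept, by construction. The share whose gene was not nearest fell from 64.1% to 52.4% with distal anchors at least 50 kb from genes. The share matched in another list, 85.6%, became 72.3% with 0 kb added, 83.1% with 5 kb, 88.8% with 25 kb and 68.8% with only gene to distal loops searched. With 0 kb added, V-2 loops matched in V-3 but missing after progesterone went from 39 to 91 and progesterone loops in neither vehicle list from 19 to 87. For the knockout these went from 27 to 65 and from 272 to 422, and 25 kb gave 10 for the former. Without 1 vehicle replicate the counts were 18 to 196 and 30 to 80 for progesterone, and 16 to 100 and 308 to 540 for the knockout. Apart from construction, the cause was not tested. Of the 12 genes with most partners, 12 were kept with anchors counted apart and 9 with 5 and 10 kb anchors, where Myc led. Another 11 were kept with distal anchors at least 50 kb from genes, a setting chosen after seeing the data. No paired analysis was possible because the groups share only replicate number 2 and no test was made.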

Other observations

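Besides the genes named in the report, several genes with roles in cell signalling were among the 124 with a distal partner in all 4 lists. They were picked by hand after their values were seen and stand for no pathway as a whole, and the counts are in the order vehicle replicate 2, vehicle replicate 3, progesterone and knockout. Ptger4, which encodes a prostaglandin E2 receptor, had 3, 2, 2 and 3 partners, and Edn1, which encodes the vasoconstrictor endothelin, had 4, 1, 1 and 3. The Sprouty genes Spry1 and Spry2, inhibitors of growth factor signalling, had 3, 1, 1 and 4 and 3, 1, 1 and 5. Hes1, a Notch target gene, had 4, 1, 2 and 3, and the Groucho corepressor genes Tle1 and Tle3 had 2, 2, 3 and 3 and 4, 2, 2 and 3. Socs2, an inhibitor of cytokine signalling, had 2, 1, 2 and 2, Irs1, an adaptor of the insulin and IGF receptors, 2, 1, 2 and 3, and Smad6, an inhibitor of BMP signalling, 2, 1, 1 and 2. Nog, which encodes the BMP antagonist noggin, had 1 in each list.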
